A study of Mus musculus with 3 samples.

Results

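The CDK inhibitors are the genes named Cdkn: Cdkn1a, Cdkn1b and Cdkn1c of the CIP/KIP family, Cdkn2a, Cdkn2b, Cdkn2c and Cdkn2d of the INK4 family, and the phosphatase gene Cdkn3. Members were the probes whose gene name in the array files was one of these symbols, which gave 17 probes for 8 genes, of 56598 probes and 24812 named genes in all. No probe under another name was annotated to a member (0 found). Transcript levels were measured on 1-colour mouse arrays in CLDE cells. CLDE is a dental epithelial cell line that was established from mouse cervical loop tissue, where the stem cells of the growing incisor reside. The 3 groups were cells taken through a mock transfection, cells given siNeg, a non-targeting control siRNA, and cells given siKrt15, which targets the transcript of keratin 15, all in the same line and medium and all harvested 72 h after transfection. Each group held 1 array, so every difference below is between 2 arrays, has no replicate check and carries no p-value. The line is a single established line grown as cultured cells, and the labels name no separate cultures or clones.

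For the siNeg and siKrt15 arrays the labels contradict each other. The titles and source names give one assignment, and the descriptions and treatment fields give the opposite one. Groups were taken from the titles. Krt15, the targeted gene, had a processed signal of 2638 in mock, 1647 in siNeg and 267 in siKrt15, so its 1 probe was lowest on the array titled siKrt15. With the descriptions' assignment every difference between siKrt15 and siNeg would change sign.

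CDK inhibitors restrain the cell cycle by acting on cyclin-dependent kinases (CDKs), the enzymes that phosphorylate the retinoblastoma protein and its relatives and so release E2F transcription factors at the entry into S phase. INK4 proteins bind the monomeric kinases CDK4 and CDK6 and keep D-type cyclins from joining them. CIP/KIP proteins bind assembled cyclin-CDK complexes, above all those of CDK2, and are themselves controlled by ubiquitin ligases. The Cdkn2a gene also encodes ARF, read from another frame, which holds back the p53 ligase MDM2. Cdkn3 is of another kind: its protein is a dual-specificity phosphatase that removes the activating phosphate from CDK2, and its transcript is known to be most abundant in dividing cells.

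The array measures each gene through probes of 60 bases placed along its transcript. The first 30 bases of the probes on which the results turn are given here, because the reading of each gene depends on which transcripts its probes can bind. Both Cdkn2a probes list both NM_009877 and NM_001040654 among their targets, so the array does not separate p16INK4a from p19ARF.
Cdkn2a, A_51_P144813: cacttctagcgatgctagcgtgtctagcat
Cdkn2a, A_55_P2008437: ggcatgagaaactgagcgaaggcggccgcg
Cdkn2b, A_52_P498241: catgtgtggggattcacctgcaaaatggca
Cdkn2b, A_55_P1988183: ccagtgatgaattgtagtggtagcaggtta
Cdkn3, A_52_P30984: caagcaatataactatcttcatgaattccg
Cdkn3, A_52_P30989: accagaggggagctgtcaaaatatagagtc
Cdkn2c, A_51_P513719: tctcactgacctcacactgtCCGTTAGTTG
Cdkn2c, A_51_P513720: CCGTTAGTTGGTTGGCTGTCCGTTTCACTA
For Cdkn2c the capitals mark what is printed here of a run that both probes hold. That run is 40 bases long, so the Cdkn2c probes are close to a repeat measurement. The Cdkn2a probes share no run longer than 9 bases, and the Cdkn2b probes none longer than 8.

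On mm9, the build of the array files, the Cdkn2a probes lie on chromosome 4 at 88920545 to 88920604 and 88920405 to 88920464, minus strand. The Cdkn2b probes lie at 88952437 to 88952496 and 88952276 to 88952335 on the same strand, and no other protein-coding gene stands between Cdkn2a and Cdkn2b in RefSeq (0 between them). The Cdkn2c probes are on chromosome 4 too, at 109333779 to 109333838 and 109333757 to 109333818. The brighter Cdkn3 probe, A_52_P30984, spans 1524 bases of chromosome 14 (47389608 to 47391131) with its 60 bases, so it crosses an exon junction. A_52_P30989 lies at 47386895 to 47386954. Exon and UTR positions of the other probes were not used here.

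The 250 bases before the annotated starts of 3 members are printed next, as the stretches in which promoter motifs were searched: both starts of Cdkn2a and the start of Cdkn3, the members with the largest differences, and the outer start of Cdkn1a as a known p53 target whose probes differed little. Sequences are from RefSeq on GRCm38.p6, in which 7 of the 8 members matched with 10 windows. Cdkn1c had no entry. Each runs 5′ to 3′ on the strand of the gene, and capitals mark the matches named as such after them. Matches of the GC box are left in lower case.
Cdkn2a, outer start, chr4:89294620-89294869, minus strand: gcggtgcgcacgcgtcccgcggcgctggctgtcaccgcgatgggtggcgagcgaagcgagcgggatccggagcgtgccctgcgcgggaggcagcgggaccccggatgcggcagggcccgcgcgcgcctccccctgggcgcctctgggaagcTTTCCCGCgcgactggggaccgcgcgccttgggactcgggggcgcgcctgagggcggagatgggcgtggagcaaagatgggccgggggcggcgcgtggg
Cdkn2a, inner start, chr4:89282193-89282442, minus strand: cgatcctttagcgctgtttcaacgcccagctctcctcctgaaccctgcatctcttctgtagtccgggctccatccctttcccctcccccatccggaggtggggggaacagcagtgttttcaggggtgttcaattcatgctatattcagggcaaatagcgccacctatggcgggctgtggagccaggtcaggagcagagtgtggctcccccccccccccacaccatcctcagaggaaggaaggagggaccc
Cdkn3, chr14:46760291-46760540, plus strand: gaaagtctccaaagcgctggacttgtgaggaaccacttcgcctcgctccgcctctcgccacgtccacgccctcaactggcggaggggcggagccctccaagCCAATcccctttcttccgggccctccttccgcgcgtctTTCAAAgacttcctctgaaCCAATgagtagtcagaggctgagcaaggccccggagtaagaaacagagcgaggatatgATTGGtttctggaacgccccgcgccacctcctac
Cdkn1a, outer start, chr17:29090729-29090978, plus strand: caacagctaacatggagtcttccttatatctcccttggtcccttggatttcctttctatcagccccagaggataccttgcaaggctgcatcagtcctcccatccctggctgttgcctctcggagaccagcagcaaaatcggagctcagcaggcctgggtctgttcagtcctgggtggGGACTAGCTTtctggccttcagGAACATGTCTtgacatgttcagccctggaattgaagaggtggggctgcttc
Motifs were searched on both strands. The capitals before the outer Cdkn2a start are TTTCCCGC, an E2F-type motif, at −99 from the start, and 0.895% of all 32851 RefSeq windows of this length held it. Any of the E2F forms TTTCCCGC, TTTGCCGC, TTTGGCGC and TTTCGCGC stood in 1.86% of windows, and among the members the outer Cdkn2a window was the only one with a match. The inner Cdkn2a window held none of the motifs searched. By the known order of the locus, the outer start is that of ARF and the inner one that of INK4a.

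Before the Cdkn3 start the capitals are CCAAT, the core of the NF-Y box, at −149, −92 and, on the minus strand, −34, and TTTGAA, the core of the cell cycle genes homology region bound by MuvB complexes, at −111 on the minus strand. CCAAT stood in 33.8% of all windows, and 3 or more times in 2.79%. TTTGAA stood in 5252 of the windows. These matches do not overlap one another. Before the outer Cdkn1a start the capitals are p53 half-sites at −73 and −51, and 7.13% of all windows held at least 1. Among the other members, a p53 half-site stood before Cdkn2d, CCAAT before Cdkn1b (2 matches) and Cdkn2d, and TTTGAA before Cdkn2b. The GC box GGGCGG, found in 32.7% of windows, stood before Cdkn1a (the inner start), Cdkn1b, Cdkn2a (the outer start), Cdkn2c, Cdkn2d and Cdkn3. TATAAA, in 12.4% of windows, stood in 0 of the member windows. A match of letters is a description and not a measured binding site.

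Signals below are the scanner's processed signal, a background-subtracted brightness in arbitrary units on a linear scale. For each difference the log2 signal was taken less the 75th percentile of its array, a signal of 191.1 on the mock array, 180.4 on siNeg and 216.0 on siKrt15. A raw signal can therefore be higher on the siKrt15 array while its scaled difference is near 0. The error is the SD of the scanner's own error model, which holds a 10% multiplicative term and is close to 0.20 for most bright probes. It is not a spread measured between cultures.

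All 3 arrays were on 1 slide with 1 scan. Spots well above background made up 67.3% to 69.2% of non-control spots. All 10 epithelial markers were above background on each array. Of 12 dental epithelial markers 7 were above background in mock and siNeg and 6 in siKrt15. Shh, Lgr5, Ambn, Enam and Odam, genes of the stem cell niche and of enamel secretion, were not above background on any array, and Amelx was not in siKrt15. Summed brightest-probe signals of the 9 mesenchymal markers ran from 339 to 354 over the 3 arrays with 7 above background, and those of 10 endothelial and immune markers from 3414 to 3832 with 6 above background. Of the mesenchymal list Col1a1, Col1a2, Col3a1, Dcn, Pdgfra, Postn and Twist1 were above background on each array, with mock signals of 174 for Dcn and 96.2 for Twist1, and Lum and Pdgfrb on none. Of the endothelial and immune list Pecam1, Ptprc, Cd68, Csf1r and Cd3e were among those above background on each array, with mock signals of 1302 for Cd68, 1217 for Ptprc, 908 for Csf1r and 363 for Cd3e. These are signals of the brightest probe, and of the 7 Ptprc probes only 2 were above background on each array. Cdh5, Kdr, Tek and Adgre1 were above background on none. Within the mesenchymal list Postn differed by 1.94 and Dcn by −1.07 between siKrt15 and siNeg, and the part of such markers in the results was not tested.

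Of the 17 member probes 15 were well above background on all 3 arrays, and every member had at least 1 such probe. The exceptions were 2 of the 4 Cdkn3 probes. No member probe was saturated, as no spot on these arrays was (0 on each).

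**Figure D1:**
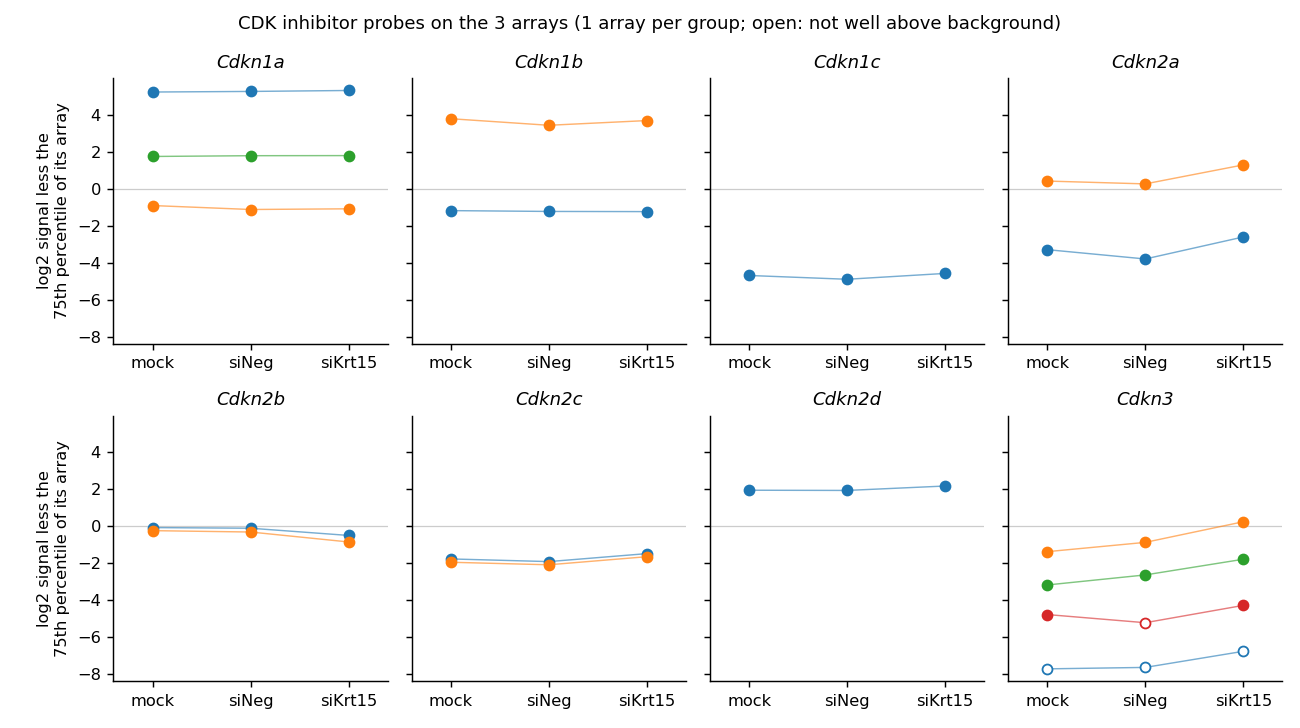
Signal of each CDK inhibitor probe on the mock, siNeg and siKrt15 arrays, as log2 signal less the 75th percentile of its array; each coloured line is 1 probe, each point 1 array, and open points are not well above background. Both Cdkn2a probes and the 2 brighter Cdkn3 probes are highest on the siKrt15 array, both Cdkn2b probes are lowest there, and the heights of different probes are not comparable.

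The comparison of siKrt15 with siNeg asks what the loss of keratin 15 transcript goes with, and the series title names cell proliferation as its subject. In it Cdkn2a and Cdkn3 were higher on the siKrt15 array by about the 2-fold threshold, Cdkn2b was lower, and the CIP/KIP genes were within their error. Of the 8 members 1 was at least 2-fold apart, Cdkn2a at 2.16-fold higher. Over all 17119 genes that could be compared, 3.70% were 2-fold or more apart and 1.70% were 2-fold or more higher. The members' median log2 difference was 0.28, beside −0.08 for all genes, and 7 of 8 were above 0. Differences of all genes had an SD of 0.42 and a 5th to 95th percentile of −0.74 to 0.57, and 2 members lay above that range and 0 below it. Beyond 1 error-model SD lay 5 members, and beyond 2 SD 4. The share of all genes beyond these marks or above 0 was not counted, and the SD of 0.42 over all genes is itself larger than the error of most bright probes. The counts of members above 0 and beyond these marks are therefore not read as a result about the members.

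How the members stand depends on where 0 is set. With each array scaled to its median, or to the 8 spike-in probes, the median of all genes moved up by 0.22, and with the signal trend removed by 0.11. Relative to the median of all genes in each setting, the members' median was 0.36, and 0.23 to 0.47 over 10 other settings. Among all genes at least 2-fold apart, 46.0% were higher, against 72.6% to 78.1% with normexp, quantile, median, spike-in or trend-removed scaling, 75.7% with a stricter filter on dim probes and 18.7% with no such filter.

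Cdkn2a, the gene of p16INK4a and ARF, had signals of 255 in mock, 217 in siNeg and 528 in siKrt15 on probe A_55_P2008437. On the dimmer A_51_P144813 they were 19.5, 13.0 and 35.4. On both probes the siKrt15 array was highest and the siNeg array lowest. The difference was 1.11 ± 0.22 (error-model SD, 1 array each), with 1.03 and 1.19 on the single probes, and 1.34% of all measured genes had a higher one. It ran from 0.57 with normexp background correction to 1.33 with median or spike-in scaling and was at least 2-fold in 9 of 10 other settings. The settings are not independent checks. With no filter on dim probes the Cdkn2a value was unchanged, and the stricter filter and the brightest probe both gave 1.03. Set against the all-gene median, the Cdkn2a difference was 1.19, and 0.67 to 1.30 over those settings.

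Cdkn2b, the gene of p15INK4b that lies beside Cdkn2a, differed in the other direction. Its signals were 181 in mock, 167 in siNeg and 152 in siKrt15 on A_52_P498241. On A_55_P1988183 they were 161, 145 and 119. Both probes were lowest on the siKrt15 array, although the scale of that array was the highest of the 3. The difference was −0.46 ± 0.20, or 1.38-fold lower, with −0.39 and −0.54 on its probes. It was below 0 in all 10 other settings, from −0.47 to −0.25, and 13.5% of measured genes had a lower one. The neighbouring INK4 genes thus stood on opposite sides of 0 in these arrays on each of their 4 probes. Set against the all-gene median, the Cdkn2b difference was −0.38, and −0.46 to −0.26 over those settings. The 13 measured reference genes had a median of −0.32 in this comparison and ran from −0.61 to 0.09, a range that takes in Cdkn2b. Mtap, the methylthioadenosine phosphorylase gene on the far side of Cdkn2a, was at 0.61, while Dmrta1 beyond Cdkn2b was not measured.

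Cdkn2c encodes p18INK4c, an inhibitor of CDK4 and CDK6. Its signals were 55.8 in mock, 47.7 in siNeg and 77.0 in siKrt15 on A_51_P513719, and 49.2, 42.3 and 68.6 on the overlapping A_51_P513720. Both were highest on the siKrt15 array. The difference was 0.43 ± 0.21, or 1.35-fold higher, and ran from 0.14 with normexp to 0.65.

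Cdkn2d, the gene of p19INK4d, was measured by 1 probe on chromosome 9 (21092934 to 21092993) with signals of 734 in mock, 688 in siNeg and 972 in siKrt15. Its difference was 0.24 ± 0.20, or 1.18-fold higher, and 0.23 to 0.46 over the other settings. This is just past 1 SD of the error model. Of the 4 INK4 genes 3 were thus above 0 and 1 was below, with a median of 0.34, and each kept its side in all 10 other settings.

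Cdkn1a encodes p21, the best known p53-induced inhibitor, and its 3 probes on chromosome 17 differed little between arrays. A_51_P363947 (29237377 to 29237436), which lists both RefSeq variants, had signals of 7195 in mock, 6944 in siNeg and 8619 in siKrt15. A_55_P1986282 (29227986 to 29228045), which lists variant NM_001111099, had 642, 623 and 750. A_55_P1976204 (29235299 to 29235358) had 102, 82.9 and 102. The raw signals were higher on siKrt15 than on siNeg by about as much as the arrays' scales, and the scaled difference was 0.03 ± 0.20. The single probes lay between 0.01 and 0.05, and the other settings between 0.03 and 0.25.

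Cdkn1b encodes p27, which is controlled chiefly through destruction of the protein, a step that transcript levels do not show. Its probe A_55_P2026562 (chromosome 6, 134875424 to 134875483) had signals of 2643 in mock, 1951 in siNeg and 2788 in siKrt15. A_52_P673863 (134873606 to 134873665) had 84.2, 77.0 and 91.7. The first probe was at 0.26 between siKrt15 and siNeg and the second at −0.01, so the probes did not agree on a direction. The gene's difference was 0.12 ± 0.20.

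Cdkn1c encodes p57 and is an imprinted gene, expressed from the maternal copy. Its only probe (chromosome 7, 150644297 to 150644356) was dim, with signals of 7.39 in mock, 6.05 in siNeg and 9.02 in siKrt15, against a lowest signal above background of 4.49 to 4.56 on these arrays. The difference was 0.32 ± 0.34, and it turned to −0.13 with normexp and was left out by the stricter filter. No direction can be read for Cdkn1c at this signal.

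Cdkn3 was close to Cdkn2a in size. Probe A_52_P30984 had signals of 73.3 in mock, 98.0 in siNeg and 254 in siKrt15, and A_52_P30989 had 21.0, 28.9 and 62.3. Both had the same order of arrays, with siNeg between mock and siKrt15. The difference from siNeg was 0.98 ± 0.21 (1.98-fold higher) over those probes, which gave 1.12 and 0.85. It ran from 0.53 with normexp to 1.20 and passed 2-fold in 5 of 10 other settings, so whether Cdkn3 is counted at 2-fold depends on the processing. Probe A_55_P2727494 (47387313 to 47387372), was not well above background in siNeg, with signals of 6.92 in mock, 4.82 in siNeg and 11.0 in siKrt15. Scaled as measured, siKrt15 was 1.91-fold higher than siNeg on this probe, a ratio that rests on a siNeg signal near the floor. The remaining probe, A_51_P285651 (47387673 to 47387732), was not well above background on any array, at 0.90 in mock, 0.90 in siNeg and 1.97 in siKrt15.

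**Figure D2:**
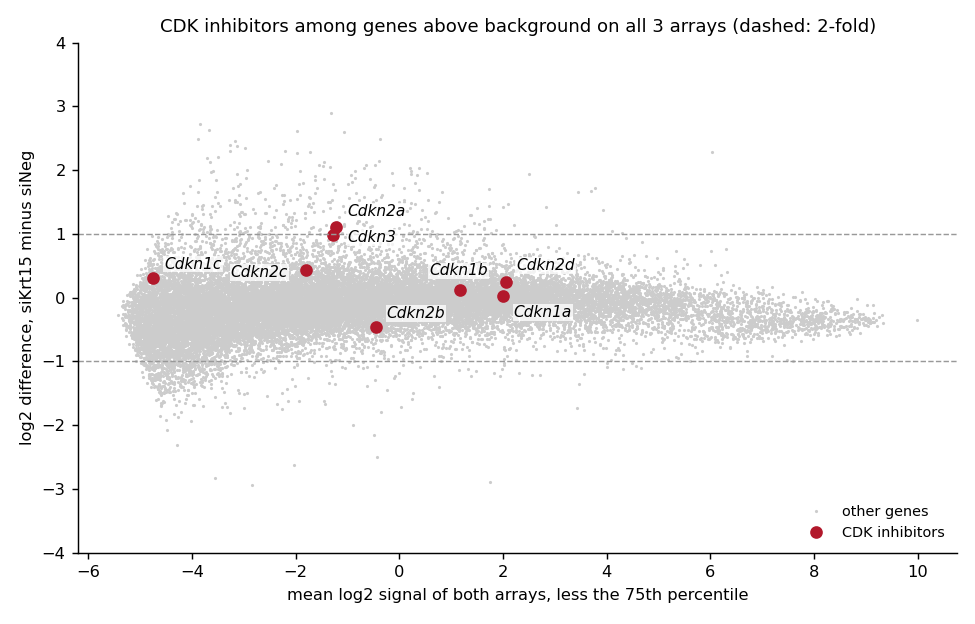
Log2 difference between the siKrt15 and siNeg arrays against the mean log2 signal of both, for every gene above background on all 3 arrays (grey) and the 8 CDK inhibitors (red), with dashed lines at 2-fold. Cdkn2a at 1.11 and Cdkn3 at 0.98 sit at the upper line, Cdkn2b at −0.46 below 0, and the other members between 0.03 and 0.43 inside the cloud of all genes.

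Against the mock transfection 1 of the 8 members was at least 2-fold apart, and this was Cdkn3 on the higher side. Of 17128 genes compared, 3.43% were 2-fold or more apart and 2.18% were 2-fold or more higher. The members' median was 0.17, beside −0.06 for all genes, with 5 members above 0 and 3 below. Set against the all-gene median, that value was 0.23, and 0.13 to 0.32 over the other settings. This comparison shares the siKrt15 array with the one before, so its values are set beside those and are no second measurement.

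Cdkn3 was higher by 1.17 ± 0.25 (2.25-fold) over the 3 probes measured on both arrays. Those probes ranged from 0.50 to 1.62, with the lowest value on the dim A_55_P2727494. Over other settings the difference ran from 0.52 with normexp to 1.62 and was at least 2-fold in 9 of 10. Cdkn2a was higher by 0.78 ± 0.21 (1.72-fold), with 0.69 and 0.87 on its probes, and stayed under 2-fold in each of the 10 other settings. Cdkn2b was at −0.52 ± 0.20, or 1.43-fold lower, and below 0 in all 10 other settings. Cdkn2c was at 0.29 ± 0.21 and Cdkn2d at 0.23 ± 0.20. The CIP/KIP genes lay close to 0, Cdkn1a at −0.02 ± 0.20, Cdkn1b at −0.08 ± 0.20 and Cdkn1c at 0.11 ± 0.32. These last 3 each changed sign under at least 1 other setting, Cdkn1a in most of them.

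On the 2 brighter Cdkn3 probes the siNeg and mock arrays differed from each other beyond the error. Between siNeg and mock 0.402% of 17414 genes were 2-fold or more apart, and 0 of the 8 members were. The members' median was −0.10, beside 0.02 for all genes, with 1 above 0 and 7 below. Cdkn3 was at 0.52 ± 0.21, or 1.44-fold higher in siNeg, with 0.50 and 0.54 on its measured probes. With no filter on dim probes it was 0.17. The dim A_55_P2727494 went the other way, at 6.92 in mock and at 4.82, not well above background, in siNeg. Cdkn2a was at −0.33 ± 0.22, with −0.15 and −0.50 on its probes. The Cdkn2a difference from siNeg is therefore larger than its difference from mock, and for the 2 brighter Cdkn3 probes the order is the reverse. Cdkn1b was at −0.20 ± 0.20, with −0.36 on A_55_P2026562 and −0.04 on the other probe. Beyond 2 error-model SD lay 1 member, Cdkn3, and the share of all genes beyond that mark was not counted. Of all measured genes 3.19% had a higher difference than Cdkn3.

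**Figure D3:**
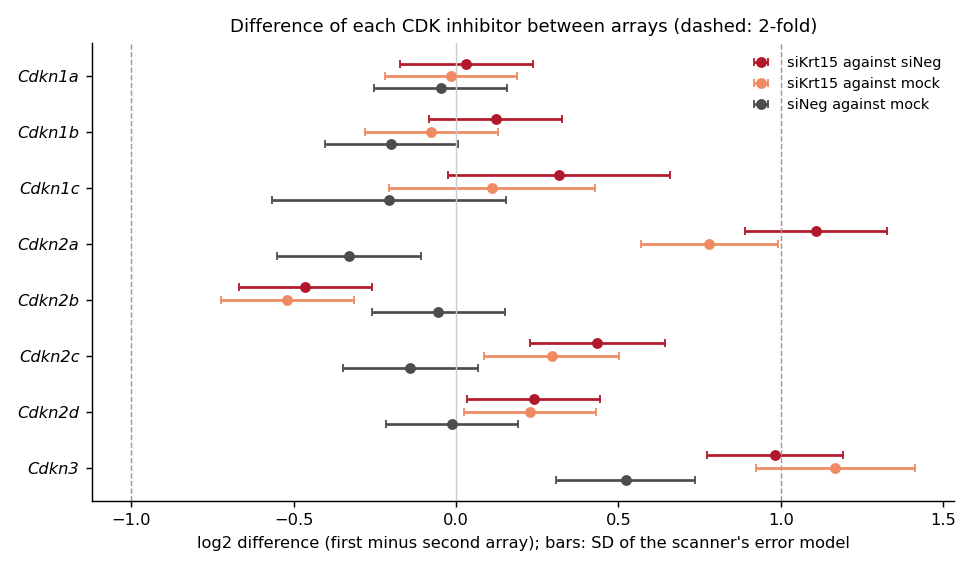
Log2 difference of each CDK inhibitor for siKrt15 against siNeg, siKrt15 against mock and siNeg against mock; bars are the SD of the scanner's error model for 1 array each, and dashed lines mark 2-fold. Cdkn2a and Cdkn3 lie to the right of 0 against both controls and Cdkn2b to the left, while the bars of Cdkn1a and Cdkn1b cross 0 in every comparison.

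The genes around the inhibitors in their pathways were taken as lists and counted at 2-fold in siKrt15 against siNeg. Over all genes 3.70% were at least that far apart. For each list up to 4 measured genes with the largest difference are named, and the range of a gene in parentheses is over the other settings. The kinases that INK4 proteins bind, Cdk4 and Cdk6, are named beyond that rule, with their values already seen, and were at 0.11 and 0.08. Among 7 measured G1 cyclins and kinases the median was 0.32, beside −0.08 for all genes, and 1 gene was 2-fold or more apart, on the higher side. Cyclin E1 (Ccne1), which activates CDK2 at the entry to S phase, had signals of 311 in mock, 388 in siNeg and 979 in siKrt15 and differed by 1.08. Cdk2 was at 0.54, Ccnd3 at 0.38 and Ccnd1 at 0.32, the last pair being D-type cyclins that INK4 proteins compete with.

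The S and M phase cyclins, CDK1 and its regulators held the most genes past 2-fold among these lists, 5 of 14, each of them higher. Their median was 0.51. Cyclin A2 (Ccna2) had signals of 63.1 in mock, 64.8 in siNeg and 328 in siKrt15 and differed by 2.08. Cyclin B2 (Ccnb2) differed by 2.03, cyclin B1 (Ccnb1) by 1.56 and Cdk1 by 1.53. All 4 were above 0.6 in every other setting, and the lowest was Ccnb1 at 0.62. The 19 pocket protein, E2F and MuvB genes had a median of 0.27 with 3 past 2-fold, also on the higher side. The mitotic activator Foxm1 differed by 1.93 (1.41 to 2.14), E2f2 by 1.80 (0.77 to 2.02), Mybl2 by 1.29 (0.89 to 1.51) and the repressor E2f7 by 0.74, the last with 0.13 and 1.34 on its probes. E2f2 and Mybl2 were thus under 2-fold at the lowest of their settings. The Foxm1 value rests on 1 measured probe of 3 and that of Mybl2 on 1 of 2.

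The 15 genes for ubiquitin ligases that act on CIP/KIP proteins had a median of 0.04, and 3 of them were at least 2-fold higher. Skp2, the F-box protein that targets p27, had signals of 46.5 in mock, 42.7 in siNeg and 107 in siKrt15 and differed by 1.06 (0.45 to 1.28). Dtl, the CUL4 adaptor that targets p21 in S phase, differed by 1.74 (0.37 to 1.96), and Cdc20, an activator of the anaphase-promoting complex, by 1.40. The Dtl value rests on 1 measured probe of 5 and that of Skp2 on 1 of 2. The scaffold Cul4a was at −0.35. The protein levels of p21 and p27 were not measured here.

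The lists nearer to control of the inhibitor genes themselves held 0 genes past 2-fold. With 3.70% of all genes 2-fold or more apart, a count of 0 in lists this short is near the share of all genes. Of 22 Polycomb and other regulators of the INK4 locus 0 were 2-fold apart, with a median of −0.08, the same as for all genes to 2 decimals. The H3K36 demethylase gene Kdm2b was at −0.38, Ets2, an activator of p16INK4a, at −0.32, Dmtf1, an activator of ARF, at −0.27 and Id1 at −0.26. Of 25 genes of the ARF and p53 axis 0 were 2-fold apart, with a median of −0.04 beside −0.08 for all genes. In this list 11 genes were above 0 and 14 below, and the largest differences were all below. The p53 targets Plk3 (−0.52), Ccng1 (−0.47), Trp53inp1 (−0.42) and Tnfrsf10b (−0.32) were below 0 in every setting, although the 3 probes of Tnfrsf10b ranged from −1.16 to 0.22. Trp53 itself was at 0.00 and Mdm2, both a p53 target and the ligase that ARF restrains, at 0.09, also named beyond the rule.

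Of 20 TGF-beta, MYC and FOXO inputs 0 were 2-fold apart, with a median of 0.01. Tgfb2 was at 0.86 with signals of 5.77 in mock, 13.1 in siNeg and 28.6 in siKrt15, a dim gene that ran from 0.11 to 1.40. The receptor Tgfbr2 was at 0.54, the feedback inhibitor Smad7 at 0.51 and Tgfb1 at −0.36. Of 11 genes of the imprinted domain around Cdkn1c 0 were 2-fold apart, with a median of 0.09. Trpm5 was at −0.78 and Kcnq1 at 0.64, Ascl2 at 0.56 and Phlda2 at 0.49. The Trpm5 value rests on 1 measured probe of 2 that was dim, with signals of 7.55 in mock, 14.2 in siNeg and 9.87 in siKrt15. It ran from −0.79 to −0.26 over the other settings, and against mock Trpm5 was at 0.21. Kcnq1 and Ascl2 turned below 0 with at least 1 other setting, and the 4 Kcnq1 probes ranged from −0.37 to 1.66.

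Of 21 senescence-associated genes 15 were measured. Their median was 0.16, and 2 were at least 2-fold higher. Igfbp7 differed by 1.70 (1.60 to 1.92) and the chemokine gene Ccl2 by 1.61 (0.62 to 1.83). The chromatin protein gene Hmgb2 was at 0.77. In this list 9 genes were above 0 and 6 below, the lowest being Plaur at −0.60, named beyond the rule. Whether the cells were senescent was not tested. Of 11 quiescence and antiproliferative genes 0 were 2-fold apart, with a median of −0.14. Ddit4 was at −0.91, Klf2 at 0.77, Gas2 at 0.59 and Gas1 at −0.56. Among 13 measured reference genes the median was −0.32, with Ywhaz at −0.61, Eef1a1 at −0.55, Actb at −0.50 and Tbp at −0.43, all below 0 in every setting.

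**Figure D4:**
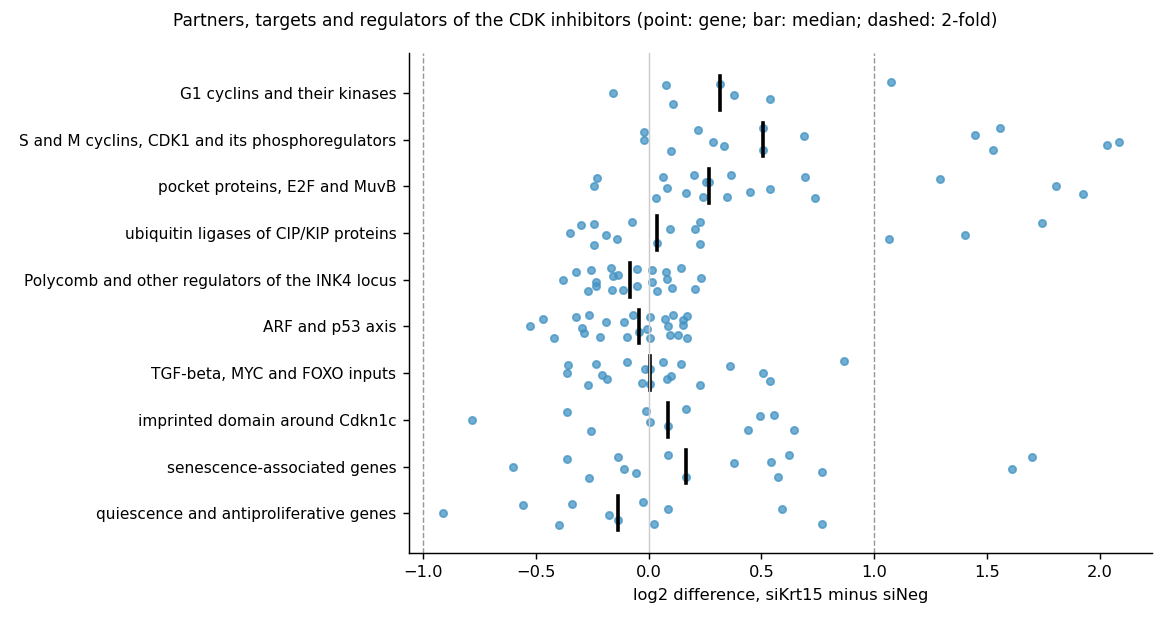
Log2 difference between siKrt15 and siNeg for each measured gene of the lists around the CDK inhibitors (points), with the list median as a bar and dashed lines at 2-fold; points are shifted up or down only to keep them apart. The lists of cyclins, E2F and MuvB genes, ubiquitin ligases and senescence-associated genes hold points past 2-fold on the right. Those of INK4 regulators and the ARF and p53 axis hold none. Of all genes 3.70% were 2-fold or more apart, so none in lists of this size is near that share.

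Against mock the same lists had medians of 0.32 for G1 cyclins and kinases, 0.46 for S and M cyclins, 0.34 for pocket proteins, E2F and MuvB, and −0.02 for the ubiquitin ligases, beside −0.06 for all genes. The median was −0.13 for the INK4 regulators and −0.20 for the ARF and p53 axis. Ccne1 was at 1.48, Ccna2 at 2.42 and Skp2 at 1.02 against mock. The lists were chosen with earlier results of these arrays known, so their counts are descriptions.

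The settings that moved the members most are shown side by side in the plot of differences under other ways of processing. Normexp, which adds an offset of 50 to every signal and so shrinks differences of dim genes, brought Cdkn2a to 0.57 and Cdkn3 to 0.53 against siNeg, and left 0 members at 2-fold. Quantile, median, spike-in and trend-removed scaling and the use of the brightest probe of each gene each counted 2 members, Cdkn2a and Cdkn3. No setting put Cdkn2a, Cdkn2c, Cdkn2d or Cdkn3 below 0 or Cdkn2b above 0 in siKrt15 against either control. Some settings left a gene's value as it was. Both changes of the filter on dim probes left Cdkn2b at −0.46 against siNeg.

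**Figure D5:**
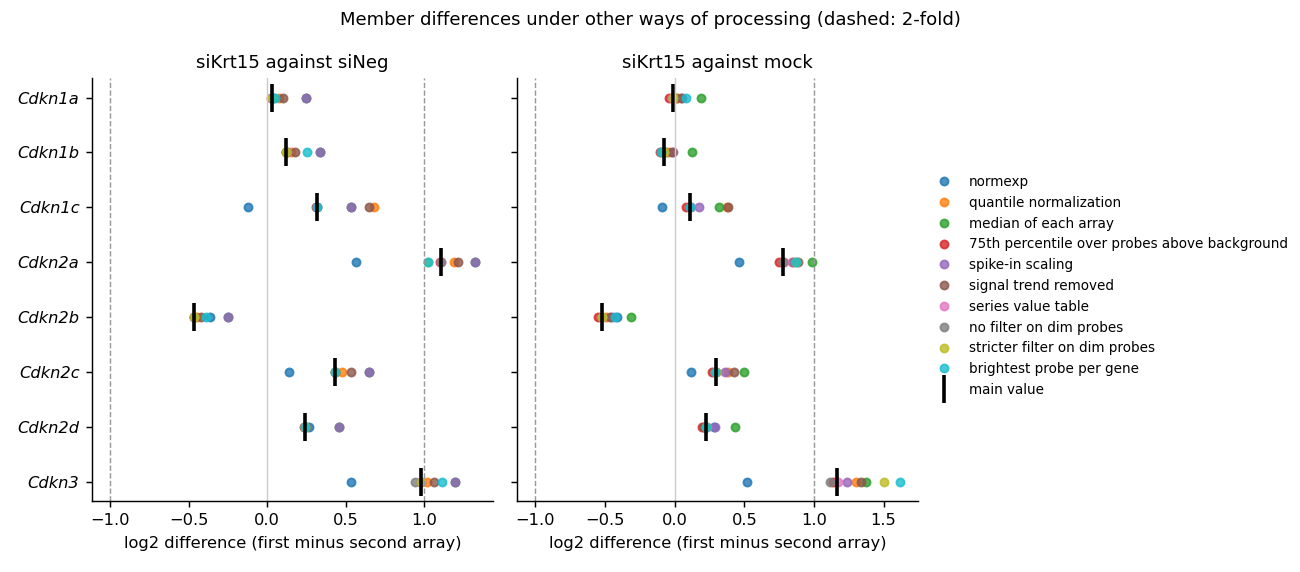
Log2 difference of each CDK inhibitor under the main processing (black bar) and 10 other settings (coloured points), for siKrt15 against siNeg and against mock, with dashed lines at 2-fold. Points of Cdkn2a and Cdkn3 stay right of 0 and reach as low as 0.57 and 0.53 against siNeg, points of Cdkn2b stay left of 0, and those of Cdkn1a, Cdkn1b and Cdkn1c lie on both sides of 0 in the panel against mock.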

How the data were processed

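Total RNA of 3 CLDE samples was labelled with Cy3 as cRNA and measured on Agilent 1-colour arrays, 1 per group, per the labels' protocols. Agilent Feature Extraction 11.5.1.1 is named in the submitters' processing notes, and per the file headers it ran protocol GE1_1105_Oct12 with probe positions on mm9. Scanner files as deposited hold a background-subtracted processed signal, an intensity. The value table that the authors deposited is on a log2 scale. It follows the log2 processed signal less a constant close to the 75th percentile of each array, with medians of −3.52 (mock), −3.51 (siNeg) and −3.72 (siKrt15). After that constant 93.8%, 94.0% and 92.4% of probes lay within 0.01.

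Control and outlier spots were left out, spots of a probe averaged, and the 75th percentile subtracted. A probe counted as measured where neither array of a comparison had it saturated or below the scanner's background call, and a gene's value is the mean of its measured probes. Probes were named through RefSeq (32977 by accession, 10219 by symbol, 520 by synonym), and 12865 kept the name in the files. The number of arrays limits the precision. No test was run. Members and lists were chosen with earlier results of these data known. Named genes were every member, Krt15, up to 4 genes per list with the largest difference between siKrt15 and siNeg, and the 3 genes nearest to each member past 2-fold. Some genes of the lists are not reported here. Alternatives used limma 3.58.1 in R 4.3.3 and Python 3.11.15. The procedure was tested on simulated data.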

Additional observations from a re-analysis of the deposited data

How the results depend on the processing

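The count of members at least 2-fold higher in siKrt15 than in siNeg was 1, but 0 with normexp and 2 with quantile normalization, scaling to the median of each array, spike-in scaling, the signal trend removed, the brightest probe per gene or a threshold of 1.5-fold. Against mock the count was 1, but 0 with normexp and 2 at 1.5-fold. The members' median between siKrt15 and siNeg was 0.28, and 0.49 with median or spike-in scaling. No other count or median of the members moved beyond its limits, and none of these values changed sign. Among all genes 2-fold apart between siKrt15 and mock, 63.7% were higher, against 72.2% to 85.7% with normexp, quantile, median, spike-in or trend-removed scaling, 78.3% with the stricter filter and 29.4% with no filter. Between siNeg and mock 88.6% were higher, against 60.5% with spike-in scaling, 66.9% with no filter and 100% of 4 genes with the stricter filter. With spike-in scaling the median of all genes moved by −0.15 between siNeg and mock. The causes of these shifts were not tested. No paired analysis was possible because each group holds 1 array and the labels give no replicate numbers. Leaving out an array would leave no comparison, so none was left out. The dim probes limit Cdkn1c and 2 of the Cdkn3 probes.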

Other observations

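Among 14846 named genes measured on all 3 arrays, those nearest to Cdkn2a by their differences between siKrt15 and siNeg and between siNeg and mock were Ccdc153 (1.12 and −0.34, at a distance of 0.018), Ggt6 (1.18 and −0.31) and Lpar1 (1.03 and −0.36), beside 1.11 and −0.33 for Cdkn2a. Within a distance of 0.25 lay 45 genes. Likeness over 3 arrays is a weak description, and nothing is read from it.

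Next to the members on their chromosomes, by the RefSeq order of genes, the differences between siKrt15 and siNeg were mixed. Srsf3, a splicing factor gene beside Cdkn1a, was at 0.48 and Rab44 on its other side at −0.42. Beside Cdkn2d, Kri1 was at −0.64 and Ap1m2 at −0.11. Beside Cdkn3, Bmp4, the gene of a signalling ligand used in tooth development, was at −0.35 and Cnih1 at −0.32, so neither went with Cdkn3.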
